A study of Rattus norvegicus with 44 samples.

Results

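The question was whether repeated endotoxin acted differently on CA1 and on the dentate gyrus (DG) of the same rats. It was asked of 32 of the 44 libraries of the study, 2 from each of 16 of its 22 rats, and of 14637 of the 19882 genes with a row for both regions. For each gene and rat the log2(value + 1) in DG was subtracted from that in CA1, and the mean of these differences in 8 vehicle rats was subtracted from the mean in 8 rats given lipopolysaccharide (LPS). This quantity is called the region difference in the LPS effect here. It is above 0 where LPS rats had more of a transcript in CA1 relative to DG than vehicle rats, and below 0 where they had less. A gene was tested where its value was at least 10 in at least 6 of the 22 libraries of each region.

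All 16 rats were male and 5 to 7 months old. LPS rats received 1 mg per kg into the peritoneum once a week, 7 injections in all, and vehicle rats received saline on the same schedule. Tissue was taken 48 hours after the seventh injection, and CA1 and DG were dissected from 1 hippocampus of each rat. The strain is not given in the sources used here. The other 12 libraries came from aged saline rats (14 to 16 months) and entered only the filter and the comparisons that name them.

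LPS is a component of the outer membrane of gram-negative bacteria. Cells sense it through Toll-like receptor 4 and its co-receptors, which activate NF-kB and lead to cytokine, interferon and complement gene expression, and in the brain microglia, astrocytes and the vessel wall carry much of that response. CA1 holds the pyramidal neurons that form the main output of the hippocampus, marked by Wfs1. DG holds the granule neurons that receive the entorhinal input, marked by Prox1, and is one of the places where neurons are born in adult rodents.

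The dissection could be read from these markers. Wfs1, which encodes a protein of the endoplasmic reticulum, ran from 12817 to 31819 normalized reads in the 16 CA1 libraries and from 522 to 9226 in the 16 DG libraries. Prox1, a homeobox transcription factor of granule neurons, ran from 1832 to 4129 in DG and from 298 to 1787 in CA1. Both markers separated the regions in every rat, but both were present in the other region. The tables of the regions were normalized separately, so a level in CA1 set against a level in DG carries a constant offset, which cancels in the region difference in the LPS effect. In bulk tissue, fewer cells of a type and less RNA per cell cannot be told apart.

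Across genes, almost no difference between the CA1 and DG effects of LPS passed the test. A single gene, Zfp300, passed an adjusted p of 0.05 (limma with Benjamini-Hochberg adjustment), which is 0.00683% of the tested genes, and it was lower in CA1 relative to DG with LPS. The next lowest adjusted p was 0.331, a value shared by 567 genes. At an unadjusted p below 0.05 stood 2043 genes (14.0%), of which 891 (6.09%) were above 0 and 1152 (7.87%) below 0. With no difference for any gene, that count would be 732 on average, although genes are not independent. Half-widths of the 95% confidence interval had a median of 0.41 on the log2 scale, so for a typical gene a region difference smaller than this lay within an interval that holds 0. The median region difference over all genes was 0.020, with quartiles of -0.20 and 0.22, and 52.3% of genes were above 0. The plot of all tested genes shows Zfp300 apart from the others.

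**Figure D1:**
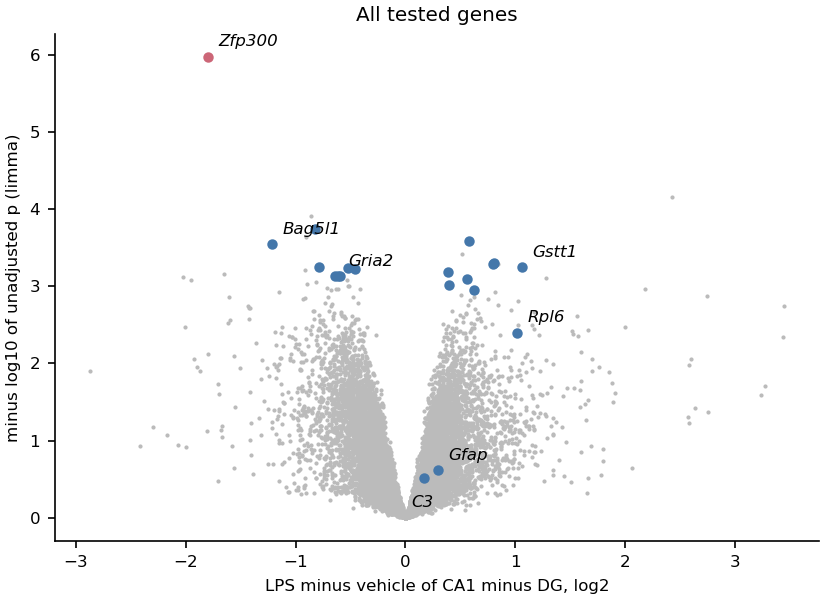
Each point is 1 of 14637 genes. The horizontal axis is the LPS minus vehicle value of CA1 minus DG on the log2 scale and the vertical axis is minus log10 of the unadjusted limma p. Zfp300 (red) lies apart at -1.79, blue points are the genes with the 8 lowest and 8 highest moderated t among well-measured genes together with Rpl6, C3 and Gfap, and the remaining genes are grey.

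Zfp300 encodes a zinc finger protein. In CA1 its normalized read count had a lowest, median and highest value of 15.9, 23.3 and 40.1 in vehicle rats, and of 3.12, 10.4 and 19.7 in LPS rats. In DG the corresponding values were 10.2, 18.6 and 38.3 in vehicle rats, and 14.6, 23.0 and 46.6 in LPS rats. So most LPS rats lay below the vehicle rats in CA1, while in DG the groups overlapped over most of their range and the 3 highest libraries were LPS.

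Within rats, CA1 minus DG ran from -0.36 to 1.04 in vehicle rats, with 7 of 8 above 0, and from -2.08 to -0.59 in LPS rats, with none above 0. For Zfp300 the groups therefore did not overlap in this difference, as the plot of Zfp300 in each rat shows. The mean difference was 0.38 in vehicle and -1.41 in LPS rats, a region difference in the LPS effect of -1.79 (SE 0.24, 95% confidence interval -2.31 to -1.28, limma adjusted p = 0.0155). It is the shift in CA1 minus the shift in DG, and the shifts were opposite. LPS minus vehicle was -1.35 in CA1 and 0.44 in DG on the same log2 scale, neither tested here.

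The depth behind Zfp300 was small. Its CA1 values rest on 3 to 17 reads per library in LPS rats and on 16 to 49 in vehicle rats, and its DG values on 12 to 59 and on 10 to 35 reads. Zinc finger genes form a large family of similar sequences, so reads could have been shared with relatives. The sign was the same in each of 33 alternative analyses that kept the gene, but the call was made in 23. Zfp300 was not called by edgeR on recovered reads (-1.88, adjusted p = 0.237), in the fit without the replicate block (-1.79, SE 0.45, adjusted p = 0.261) or with the number series of the rats as a factor (-1.76, adjusted p = 0.167). The number series is the leading pair of digits of the animal number. Within the series that holds 4 rats of each group the value was -1.82, but the limma adjusted p was 0.939, the highest of the 33. Outside that series, vehicle rat 2410 shared a series with LPS rats 2403, 2404 and 2408. LPS rat 2717 shared one with vehicle rats 2722, 2728 and 2731. Number series and treatment were therefore partly confounded in the main contrast. Without LPS rat 2408 or 2543 the adjusted p was 0.0503, and without vehicle rat 2410, 2571 or 2728 it was 0.0571, 0.0646 and 0.0652. DESeq2 on the recovered reads called it (-1.89, adjusted p = 0.0109).

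**Figure D2:**
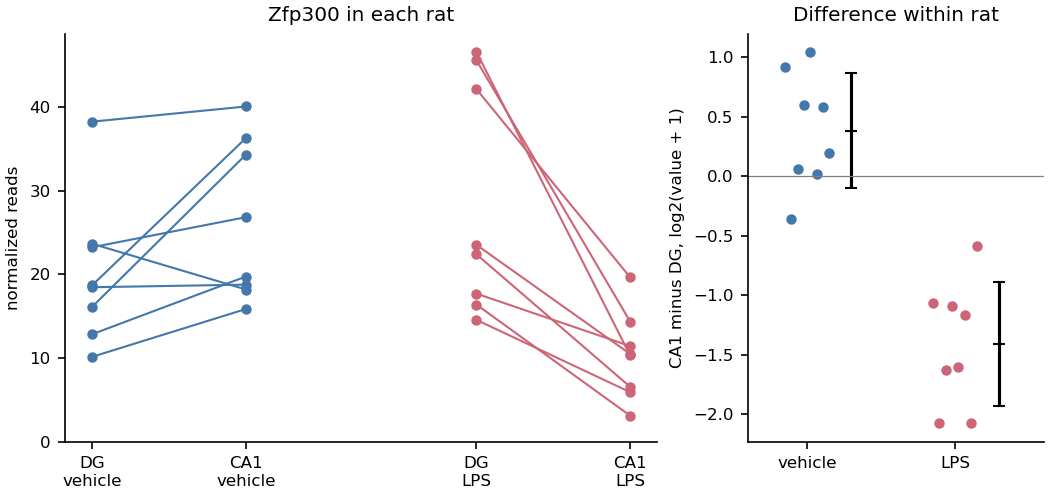
Left, normalized reads of Zfp300 in DG and CA1, each line joining the libraries of 1 rat, for 8 vehicle rats (blue) and 8 LPS rats (red). Right, CA1 minus DG of log2(value + 1) for each rat, with the mean and SD beside the points: vehicle rats lie between -0.36 and 1.04 and LPS rats between -2.08 and -0.59.

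Counted without a test, the LPS and vehicle rats did not overlap in CA1 minus DG for 7 genes (0.0478%). LPS was lower for 3 of them (0.0205%), Zfp300, Brcc3 and Efcab2, and higher for 4 (0.0273%), Gstt1, Mfsd3, Sema4c and Tmem101. Brcc3, Efcab2 and Sema4c lie outside the rule that chose the named genes and are given because the count is small. Brcc3, a deubiquitinase that also acts on the NLRP3 inflammasome, had a region difference of -0.27 (SE 0.08). Efcab2, an EF-hand calcium-binding protein gene, had -0.82 (SE 0.17), and Sema4c, a transmembrane semaphorin, 0.62 (SE 0.16). All 3 had an adjusted p of 0.331.

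The genes next in rank were taken as the 8 with the lowest and the 8 with the highest moderated t among genes with a mean of at least 50 normalized reads in the young libraries of each region. None of the 16 passed the threshold, each with an adjusted p of 0.331, and their sign was the same in all 34 alternative analyses. They were chosen for their rank, so the constant sign and the separation of the groups that follows describe them and support nothing. With LPS, 8 were lower in CA1 relative to DG: Lrrcc1, Bag5l1, Ccdc112, Mbnl2, Cnot2, Brix1, Syt6 and Gria2. The 8 in the opposite direction were Mfsd3, Tmem8b, Camk2n2, Gstt1, Tmem101, Zfpl1, Gga2 and Actb.

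Gria2 encodes the AMPA receptor subunit whose edited form keeps the channel nearly impermeable to calcium. In CA1 the lowest, median and highest values of Gria2 were 7460, 11457 and 13370 normalized reads in vehicle rats and 5776, 8712 and 11776 in LPS rats. In DG they were 9194, 11060 and 12748 in vehicle rats and 10985, 12222 and 18507 in LPS rats. The groups overlapped in both regions, with LPS rats mostly lower in CA1 and mostly higher in DG. CA1 minus DG was below 0 in 8 of 8 LPS rats (-1.15 to -0.15) and in 4 of 8 vehicle rats (-0.35 to 0.40), a region difference of -0.61 (SE 0.15).

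Syt6, of the synaptotagmin family of membrane-trafficking proteins, gave -0.60 (SE 0.15). In CA1 its median was 206 normalized reads in vehicle (179 to 300) and 154 in LPS rats (134 to 197), and in DG 262 (219 to 352) and 308 (227 to 357). Every LPS rat was below the vehicle median of CA1 minus DG for Syt6, as for the other 7 genes of this direction.

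Among the lower genes, 3 act on RNA or ribosomes. Mbnl2, a splicing regulator of the muscleblind family, gave -0.52 (SE 0.12), with CA1 medians of 2488 in vehicle and 2217 in LPS rats and DG medians of 2273 and 2709. Cnot2, a subunit of the CCR4-NOT deadenylase that shortens mRNA tails, gave -0.46 (SE 0.11). Brix1, needed for assembly of the large ribosomal subunit, gave -0.64 (SE 0.16). CA1 minus DG was below 0 in 8 of 8 LPS rats for Cnot2 and Brix1 and in 7 of 8 for Mbnl2, where the vehicle rats lay on both sides of 0.

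Bag5l1 had the largest size among the lower 8, at -1.22 (SE 0.27). It resembles Bag5, a co-chaperone of Hsp70, and reads may be split between such copies. CA1 values had a median of 415 normalized reads in vehicle (302 to 645) and 273 in LPS rats (149 to 441), and DG values a median of 269 (164 to 314) and 390 (235 to 697). Vehicle rat 2410 had the highest CA1 minus DG of Bag5l1, 1.97, where the other vehicle rats ran from 0.24 to 0.97. Lrrcc1, a centrosome protein gene, gave -0.82 (SE 0.17), and Ccdc112, which encodes a coiled-coil protein, -0.78 (SE 0.19).

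In the upper direction, Actb encodes cytoplasmic beta-actin. It has many processed copies in the genome, so its read count is uncertain to that extent. Its lowest, median and highest CA1 values were 17081, 26178 and 30440 normalized reads in vehicle and 26006, 34028 and 38110 in LPS rats. In DG they were 20034, 26053 and 35473 in vehicle rats and 17239, 23128 and 27397 in LPS rats. LPS rats lay mostly above vehicle rats in CA1 and mostly below them in DG, with overlap in both. In 7 of 8 LPS rats CA1 minus DG was above 0, against 3 of 8 vehicle rats, and the region difference was 0.62 (SE 0.16).

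Camk2n2, an inhibitor of the calcium/calmodulin-dependent kinase II that drives synaptic potentiation, gave 0.79 (SE 0.19). Its CA1 median was 148 normalized reads in vehicle (111 to 178) and 185 in LPS rats (125 to 325), and its DG median 212 (183 to 250) and 169 (118 to 232). All vehicle rats had less Camk2n2 in CA1 than in DG by these values, and 5 of 8 LPS rats had more.

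Gstt1, a glutathione transferase of the theta class, gave 1.06 (SE 0.25), the largest size among the upper 8. Its CA1 median was 53.1 normalized reads in vehicle (24.5 to 90.3) and 72.4 in LPS rats (50.6 to 98.9), and its DG median 52.5 (38.5 to 118) and 40.6 (22.9 to 54.0). Within rats Gstt1 ran from -1.20 to 0.49 in vehicle and from 0.50 to 1.47 in LPS rats, so the groups touched without overlapping.

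Other genes of the upper 8 encode membrane and Golgi proteins. Gga2, a clathrin adaptor of the trans-Golgi network, gave 0.39 (SE 0.10), and Zfpl1, a Golgi membrane protein gene, 0.56 (SE 0.14). Mfsd3, a gene of the major facilitator transporter family, gave 0.58 (SE 0.13). Tmem8b gave 0.81 (SE 0.19) and Tmem101 0.38 (SE 0.09). Every LPS rat was above the vehicle median for each of these 5 genes, as the plot of the 16 genes by rat shows.

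**Figure D3:**
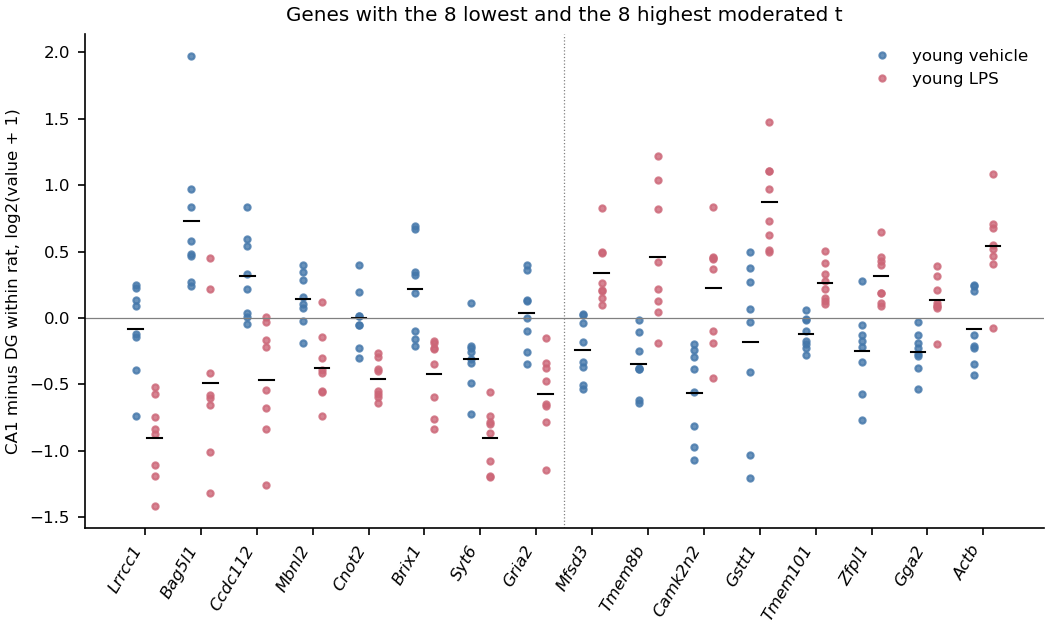
CA1 minus DG of log2(value + 1) in each of 8 vehicle rats (blue) and 8 LPS rats (red) for the genes with the 8 lowest (left of the dotted line) and 8 highest moderated t, with bars at the group means. Genes were chosen by rank in this contrast, so the separation is a description. Gria2 ran from -0.35 to 0.40 in vehicle and from -1.15 to -0.15 in LPS rats.

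C3 and Rpl6 are described because earlier analyses of these data had shown differences with LPS within a region. C3, the central component of complement, had CA1 values of 474, 588 and 779 normalized reads (lowest, median, highest) in vehicle and 930, 1204 and 2651 in LPS rats. DG values were 337, 461 and 605 in vehicle and 661, 882 and 1417 in LPS rats. LPS rats lay above all vehicle rats in both regions, by 1.20 in CA1 and by 1.03 in DG on the log2 scale. The region difference of C3 was 0.17 (SE 0.16, 95% confidence interval -0.17 to 0.51, limma adjusted p = 0.609), so a difference of more than 0.51 between the regions lies outside the interval.

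Rpl6 is a structural component of the ribosome's large subunit. Its DG counts were 1856, 2064 and 3203 normalized reads in vehicle and 1134, 1344 and 1554 in LPS rats, without overlap, while its CA1 counts were 721, 1762 and 2590 in vehicle and 1072, 2050 and 2904 in LPS rats. The region difference was 1.01 (SE 0.30, 95% confidence interval 0.37 to 1.65, limma adjusted p = 0.331) and did not pass the threshold. Vehicle rats 2410 and 2526 had the lowest CA1 counts of Rpl6, 871 and 721. With library weights the value was 0.69. Processed copies of Rpl6 could share its reads.

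The gene lists that follow are read against all tested genes, of which 6.09% were above 0 and 7.87% below 0 at an unadjusted p below 0.05, and 52.3% were above 0 at any p. Genes that sense endotoxin gave no call. Of 20 genes listed for the endotoxin receptor and NF-kB signalling, 17 were tested, and 2 above 0 and none below reached an unadjusted p below 0.05. Their median was 0.08, and -0.002 without LPS rat 2404. Tlr4, the receptor itself, had a region difference of 0.17 (SE 0.35) at a median of 18.2 to 24.5 normalized reads in the 4 groups of libraries, with a 95% confidence interval of -0.57 to 0.91. Rela, the NF-kB subunit p65, gave 0.46 (SE 0.19, limma adjusted p = 0.336), and Irak1, a kinase below the receptor, 0.23 (SE 0.09, adjusted p = 0.336). Map3k7, the kinase TAK1, gave -0.31 (SE 0.26).

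Interferon-response genes showed 3 of 30 members at an unadjusted p below 0.05, all above 0, where 6.09% of all genes were. Of the 30, 21 were above 0 at any p, against 52.3% of all genes, with a median of 0.09. The median was -0.013 without vehicle rats 2526 and 2572, and -0.014 with library weights. Bst2, an antiviral membrane tether, gave 0.96 (SE 0.27, limma adjusted p = 0.331). Its CA1 values were 22.7, 47.0 and 61.5 normalized reads in vehicle and 55.9, 63.2 and 119 in LPS rats, and its DG values 26.6, 42.5 and 91.8 in vehicle and 23.1, 39.0 and 57.3 in LPS rats. In CA1 the LPS rats started near the top of the vehicle range and reached above it, and in DG the groups overlapped. Psmb9, a subunit of the immunoproteasome, gave 0.78 (SE 0.31), with LPS rat 2547 far above the others at 2.73 in CA1 minus DG. Oasl, a homologue of the 2',5'-oligoadenylate synthetases, gave 1.27 (SE 0.60, adjusted p = 0.355).

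Complement genes were above 0 in 12 of 17 with a median of 0.18, and the median was above 0 in all 34 alternative analyses. Of these, C5ar1, the receptor for the C5a fragment, had an unadjusted p below 0.05, with 0.93 (SE 0.35, limma adjusted p = 0.336). Its level was low, with medians of 15.2 normalized reads in vehicle and 19.2 in LPS rats in CA1, and of 18.6 and 10.9 in DG. The chains of C1q, which microglia make, gave 0.32 (C1qa), 0.18 (C1qb) and 0.39 (C1qc), none of them at an unadjusted p below 0.05. Cytokine and receptor genes had a median of 0.11 over 14 tested members, with none at an unadjusted p below 0.05. Cd74 in CA1 is not analysed here, and of the genes of MHC class II presentation 4 were tested, from -0.09 for RT1-DMa to 0.70 for RT1-DMb, none at an unadjusted p below 0.05.

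Among glial markers, microglia gave 11 of 15 above 0 with a median of 0.22, and none of the 15 was at an unadjusted p below 0.05. The microglia median was -0.05 within the number series that holds 4 rats of each group. Aif1, which encodes the microglial protein Iba1, went the other way at -0.47 (SE 0.26, limma adjusted p = 0.408). Its CA1 median was 284 normalized reads in vehicle (190 to 486) and 241 in LPS rats (163 to 358), and its DG median 174 (137 to 305) and 223 (128 to 320). All 8 vehicle rats had more Aif1 in CA1 than in DG by these values, and 3 of 8 LPS rats did.

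Astrocyte markers were above 0 in 13 of 15 with a median of 0.14, and of these Slc7a10 and Aldh1l1 had an unadjusted p below 0.05. Slc7a10, an amino acid exchanger that carries D-serine, gave 0.59 (SE 0.17, adjusted p = 0.331), and CA1 minus DG was above 0 in 8 of 8 LPS rats and in 6 of 8 vehicle rats. Its CA1 median was 333 normalized reads in vehicle (261 to 391) and 443 in LPS rats (382 to 541), and its DG median 280 (217 to 334) and 247 (197 to 367). Aldh1l1, a folate enzyme of astrocytes, gave 0.66 (SE 0.27). Aqp4, the water channel of astrocyte endfeet, lay on the other side at -0.34 (SE 0.17). Within the number series with 4 rats of each group the astrocyte median was -0.08.

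Gfap, the intermediate filament that rises in reactive astrocytes, gave 0.29 (SE 0.24, limma adjusted p = 0.557). Its CA1 values were 14692, 20169 and 34441 normalized reads in vehicle and 20115, 22676 and 34485 in LPS rats, and its DG values 13347, 16886 and 26720 in vehicle and 15156, 17703 and 18754 in LPS rats. The groups overlapped in both regions. Of 16 reactive astrocyte genes tested, Timp1, an inhibitor of matrix metalloproteinases, had an unadjusted p below 0.05 (1.29, SE 0.52, adjusted p = 0.336) at medians of 8.93 to 15.3 normalized reads.

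Oligodendrocyte precursor markers were above 0 in 9 of 10 with a median of 0.29, and none reached an unadjusted p below 0.05. Relative to the mean of the 16 young libraries of each region, LPS rat 2404 had a list mean of CA1 minus DG of 0.71, where the other LPS rats ran from -0.15 to 0.17, and within the number series with 4 rats of each group the median was -0.05. Gpr17, a receptor of precursors that begin to differentiate, gave 0.61 (SE 0.31), and Pdgfra, the growth factor receptor that defines these cells, 0.13 (SE 0.16).

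Genes of the GABA-A receptor, the chloride channel of fast inhibition, lay mostly below 0. Of 12 GABA-A receptor subunit genes, 11 were below 0, with a median of -0.28, against 0.020 over all genes. Of the 12, 4 were at an unadjusted p below 0.05 and below 0, where 7.87% of all genes were. Among them were Gabra2 (-0.46) and Gabra5 (-0.51), which encode alpha subunits of the receptor. Gabrd, the delta subunit of granule neuron receptors, was the exception at 0.21 (SE 0.21). None passed the threshold over all genes, and the median lay between -0.42 and -0.23 in the 34 alternative analyses. Summed over the list, GABA-A subunit counts in CA1 ran from 10393 to 15414 normalized reads in vehicle and from 9308 to 13929 in LPS rats, and in DG from 13634 to 16703 and from 15066 to 18521.

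Interneuron markers had a median of -0.17, with 5 of 17 above 0, against 52.3% of all genes. At an unadjusted p below 0.05 were 4, all below 0, where 7.87% of all genes were. Gad2, an enzyme of GABA synthesis, gave -0.46 (SE 0.20, limma adjusted p = 0.346), whereas Gad1, the other such enzyme, gave -0.11 and Slc32a1, the vesicular GABA transporter, 0.25. Cnr1, the cannabinoid receptor of a class of interneurons, gave -0.44 (SE 0.16), Nxph1 -0.53 and Dlx1 -0.45. The subtype markers Pvalb (0.05), Sst (-0.24) and Vip (-0.40) were not at an unadjusted p below 0.05.

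Ionotropic glutamate receptor genes were divided, with a median of 0.018 and 8 of 15 above 0. Gria2, Gria3 (-0.51) and Grik2 (-0.46) were below 0 at an unadjusted p below 0.05, and Grin1, the obligatory NMDA receptor subunit, was above 0 (0.35, SE 0.15). Grin1 CA1 values were 8658, 11667 and 14115 normalized reads in vehicle and 11199, 12913 and 17742 in LPS rats, with DG values of 10777, 12802 and 15540 and of 8614, 12186 and 15542. The groups overlapped in each region, and all 8 LPS rats were above the vehicle median in CA1 minus DG. Grin2b, an NMDA subunit enriched in forebrain, gave 0.07 (SE 0.25, 95% confidence interval -0.45 to 0.58).

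Synaptic vesicle genes had a median of 0.08 with none of 19 at an unadjusted p below 0.05, and voltage-gated calcium channel genes one of -0.016, with Cacnb2 (-0.39) and Cacna2d1 (-0.41) below 0 at such a p. Neuropeptide and granin genes were above 0 in 5 of 18 with a median of -0.23, none at an unadjusted p below 0.05, and the median was 0.16 within the number series with 4 rats of each group. Ntf3, the neurotrophin NT-3, which granule neurons make, gave -0.90 (SE 0.42, limma adjusted p = 0.356). Its CA1 values were 79.5, 211 and 269 normalized reads in vehicle and 34.7, 111 and 268 in LPS rats, where its DG values were 239, 411 and 464 and 363, 415 and 478. Ntf3 was -0.10 within the number series with 4 rats of each group and -0.44 without LPS rats 2403 and 2527. Bdnf, a neurotrophin induced by activity, gave -0.26 (SE 0.31, adjusted p = 0.682), and the immediate early genes, among them Fos (0.50) and Arc (0.25), had a median of 0.17 with none of 20 at an unadjusted p below 0.05.

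Chaperones help proteins fold and protect cells under stress. Of 19 tested, 7 were below 0 at an unadjusted p below 0.05 and 1, the transcription factor gene Hsf1 (0.31), above 0, where 7.87% and 6.09% of all genes were. The list median was -0.18, between -0.23 and -0.13 in the 34 alternative analyses. The 7 were Hsp90b1 (-0.40), Dnaja1 (-0.48), Hspd1 (-0.55), Hspe1 (-0.58), Hsph1 (-0.28), Hspa4 (-0.35) and Dnajb4 (-0.49). Hspd1 and Hspe1 encode the mitochondrial chaperonin and its partner, Dnaja1 and Dnajb4 are co-chaperones of Hsp70, and Hsp90b1 is the Hsp90 of the endoplasmic reticulum. None passed the threshold over all genes.

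Hsp90b1 in CA1 had 4852, 5437 and 6479 normalized reads in vehicle and 3982, 4720 and 5506 in LPS rats, and in DG 4421, 5007 and 5604 and 4675, 5661 and 6660. LPS rats were lower in CA1 and higher in DG by these values, with overlap in both, and the region difference was -0.40 (SE 0.13, limma adjusted p = 0.331). The stress-inducible gene Hspa1a gave 0.48 and Hspb1 0.90, neither at an unadjusted p below 0.05.

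Genes of respiration and protein synthesis lay on both sides of 0. Of 79 nuclear oxidative phosphorylation genes, 10 were above 0 and 6 below at an unadjusted p below 0.05, where 6.09% and 7.87% of all genes were, with a median of 0.06. Cox5a, a subunit of cytochrome c oxidase, gave -0.68 (SE 0.22, adjusted p = 0.331), and Atp5f1d, the delta subunit of ATP synthase, 0.42 (SE 0.14, adjusted p = 0.331, limma). The transcripts encoded by mitochondrial DNA were below 0 in 10 of 11, with a median of -0.24 and none at an unadjusted p below 0.05. Reads from these genes made up 15.8% of vehicle library 2572 of CA1, and 5.55% to 11.3% of the other 15 CA1 libraries. Of 72 cytosolic ribosomal protein genes, 4 were above 0 and 2 below at an unadjusted p below 0.05, against the same 6.09% and 7.87% of all genes, with a median of 0.11, which was -0.05 without vehicle rats 2526 and 2572. For proteasome subunits the median was -0.017 over 37 genes.

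**Figure D4:**
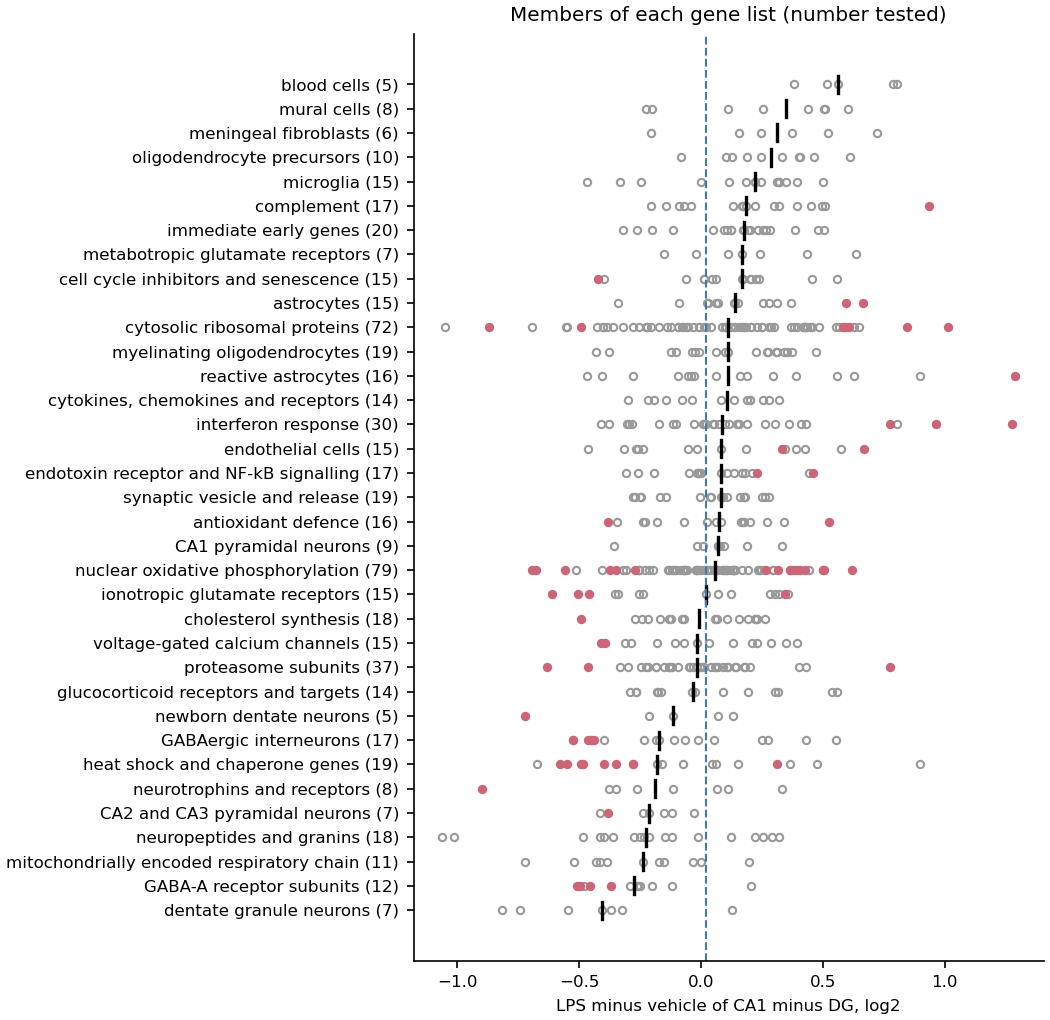
Each point is a tested gene placed at its LPS minus vehicle value of CA1 minus DG on the log2 scale. Rows are the lists with at least 5 tested genes, in order of their median (black bar), the dashed line is the median of all genes at 0.020, and red marks an unadjusted limma p below 0.05. None of the red points passed the adjusted threshold.

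CA1 libraries of 2 LPS rats held few transcripts of granule neurons. The 7 of 10 listed markers of dentate granule neurons that were tested had a median of -0.41, with 6 below 0 and none at an unadjusted p below 0.05. Prox1 gave -0.33 (SE 0.41) and Trpc6, a cation channel, -0.55 (SE 0.32). In CA1 the markers summed to 3429 to 5755 normalized reads in vehicle rats and to 774 to 7380 in LPS rats, with 774 in LPS rat 2403, 1398 in LPS rat 2527 and 3245 or more in the others. In DG they summed to 8657 to 12159 in vehicle and to 6731 to 11893 in LPS rats. Without rats 2403 and 2527 the median of dentate granule neurons was 0.08, and Zfp300 was -1.91 (adjusted p = 0.0399). None of the markers with a row was at 0 in all young libraries of either region.

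Markers of CA1 pyramidal neurons varied in DG of both groups. The 9 of 10 listed markers that were tested summed to 2556 to 14952 normalized reads in DG of vehicle rats and to 2410 to 12041 in DG of LPS rats, beside 27162 to 45104 and 33038 to 58534 in CA1. Their median region difference was 0.07, with a sign that changed in 9 of 34 alternative analyses, and Wfs1 gave -0.018 (SE 0.81). Zfpm2 had a lower normalized value in CA1 than in DG in all 16 rats, so by these values it did not mark CA1. It was nevertheless kept in the sums, the median and the score that follows. With the CA1 pyramidal minus dentate granule score of each rat as a covariate, Zfp300 was -1.81 (adjusted p = 0.0365) and 1778 genes were at an unadjusted p below 0.05. CA2 and CA3 markers were below 0 in 7 of 7 tested, with a median of -0.21. Their part in the differences of the other genes was not tested further.

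Lists of meningeal fibroblast, mural and blood cell markers had medians of 0.31 (6 of 11 listed genes tested), 0.35 (8 of 10) and 0.56 (5 of 9), with none at an unadjusted p below 0.05. Endothelial markers had a median of 0.08, with 8 of 15 above 0, and Vwf (0.67) and Mfsd2a (0.33) were at such a p. Of the 6 markers of perivascular macrophages 4 were tested, with a median of -0.38, 1 above 0 and none at such a p. Meningeal genes summed to 164 to 1799 normalized reads in DG of vehicle rats and to 176 to 483 in DG of LPS rats, with 1600 in vehicle rat 2526 and 1799 in vehicle rat 2572. In CA1 the sums were 375 to 930 and 482 to 675. Without these 2 rats the median of meningeal fibroblasts was -0.18, Zfp300 was -1.74 (adjusted p = 0.0573), and 1601 genes were at an unadjusted p below 0.05, among which Tmem74b, a gene chosen after its value was seen, was called at 1.42. The plot of list means by library shows where these libraries lie.

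**Figure D5:**
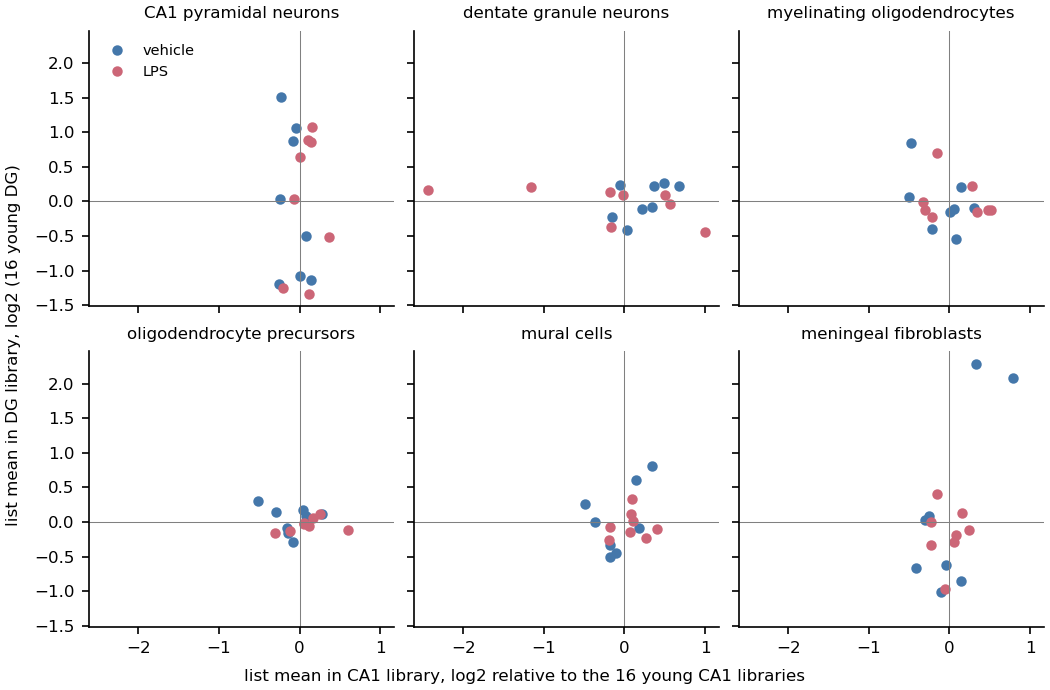
Mean log2 level of 6 marker lists in the CA1 library (horizontal axis) and DG library (vertical axis) of each rat, each relative to the mean of the 16 young libraries of that region, for vehicle (blue) and LPS (red). LPS rats 2403 and 2527 lie at -2.44 and -1.16 on the horizontal axis for dentate granule neurons, and vehicle rats 2526 and 2572 at 2.08 and 2.28 on the vertical axis for meningeal fibroblasts.

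Libraries held 13101422 to 18749663 recovered reads in CA1 and 12130182 to 23519789 in DG. The log2 ratio of CA1 to DG reads was lower in LPS than in vehicle rats by -0.19, from -0.61 to 0.44 in LPS and from -0.49 to 0.45 in vehicle rats (exact permutation test over all 12870 splits of the 16 rats, two-sided p = 0.282). Its part in the gene results was not tested. Of the remaining lists, glucocorticoid receptors and targets had a median of -0.03, with Fkbp5, a co-chaperone induced by corticosteroids, at -0.16 (SE 0.16, limma adjusted p = 0.621). Genes for cholesterol synthesis had a median of -0.007 and those for antioxidant defence 0.07. Cell cycle inhibitors and senescence genes had a median of 0.17, with Cdkn1a, which encodes p21, at 0.56 (SE 0.36, adjusted p = 0.459). Its CA1 median was 62.9 normalized reads in vehicle (41.8 to 94.6) and 78.1 in LPS rats (55.7 to 125), and its DG median 52.5 (21.3 to 83.8) and 44.0 (19.5 to 71.2), with overlap in both regions.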

How the data were processed

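Values are normalized read counts as the authors deposited them, a signal that is never negative, in a separate table for each region. Per the submitters' processing notes, STAR, Partek, DESeq2 and rn6 were used, with neither versions nor roles stated. Annotation, read filters and strand setting are not stated in those notes. Because 1 read is worth a fixed amount in each library, whole reads could be recovered (99.8% of CA1 values and 100% of DG values within a tolerance of 0.1, with fractions in 225 and 0 rows).

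CA1 minus DG of log2(value + 1), a pseudocount of 1, was formed within each rat, and LPS minus vehicle was tested with limma 3.58.1 (R 4.3.3, trend and robust options) and Benjamini-Hochberg adjustment over all tested genes. Folds of low genes are understated on this scale. The difference within a rat acts as a replicate block, since the labels tie both regions of 1 hippocampus to an animal number. Same-rat libraries correlated in their deviation from the group at a median of 0.038 (-0.25 to 0.27), above 0.1 in 6 of 16 rats. In only 1 of 16 rats did the CA1 library correlate best with the DG library of the same rat. Random matching would also give 1 of 16 on average, so by this count the values showed no pairing within rats. With no replicate block, 0 genes were called and 2168 had an unadjusted p below 0.05. Alternatives used edgeR 4.0.16 and DESeq2 1.42.0 on recovered reads, and other filters, scalings, covariates and sets of rats. The procedures were tested on simulated data, where the same fit recovered 4 of 68 genes with a log2 change of 0.5. For changes of 1 and 2 it recovered 32 of 66 and 62 of 66, and it called 7 unchanged genes. The simulated CA1 and DG libraries shared no rat effect, so the replicate block was not tested there.

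The comparison, gene lists and preset genes were chosen with earlier results of these data known. Named genes are those past the threshold, the 8 highest and 8 lowest moderated t at a mean of at least 50, preset genes (Cd74 in CA1 is not analysed here), and the highest and lowest moderated t of each list with defining members. Other list members were named after their values were seen. Lists were given counts and medians, with no test. Some genes that the rule takes are not reported here.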

Additional observations from a re-analysis of the deposited data

Results flagged for a closer look

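Results are given here where 1 value lay far from the rest of its group, or where the effect of LPS differed between regions by a test. Distance was the gap to the nearest neighbour as a share of the group's range. A value is CA1 minus DG of 1 rat, or the recovered reads of 1 library. For CA1 minus DG, the flag does not tell which of the rat's 2 libraries is unusual. Of 286 groups examined, 18 had such a value, which is near the 1 in 20 that chance gives. The groups share rats and genes, so they are not independent. The tested difference is Zfp300, at -1.79.

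Vehicle rat 2410 stood apart in CA1 minus DG in several sets. Bag5l1 was 1.97 there against 0.24 to 0.97 in the other vehicle rats, Cacng5, a transmembrane regulator of AMPA receptors, was -1.97 against 0.73 to 2.07, and Car2, the carbonic anhydrase of oligodendrocytes, was -0.52 against 0.45 to 1.12. Means over a list are relative to the 16 young libraries of each region, so 0 is no level. The same rat was highest in the mean of the chaperone list, 0.23 against 0.012 to 0.068, and of the synaptic vesicle list, 0.41 against -0.17 to 0.06.

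LPS rat 2547 was high in Cacng5 (4.80 against -0.40 to 1.69), Map3k7 (0.94 against -1.08 to -0.21) and Psmb9 (2.73 against 0.048 to 1.03). LPS rat 2543 was low in Cnr1 (-0.89 against -0.22 to 0.36), Lum, a proteoglycan of fibroblasts (-2.27 against -0.13 to 0.81), Slco1c1, a thyroid hormone carrier of brain endothelium (-0.41 against -0.069 to 0.22), and the endothelial list (-0.31 against -0.014 to 0.25).

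Vehicle rat 2572 was low in Lum (-2.13 against -0.27 to 1.29), vehicle rat 2523 was high in Psmb9 (0.76 against -0.24 to 0.12), and LPS rat 2573 was low in RT1-DMa (-1.31 against -0.33 to 0.40). LPS rat 2403 was low in the cytokine list (-0.25 against -0.050 to 0.12), and LPS rat 2404 was high in the oligodendrocyte precursor list (0.71 against -0.15 to 0.17). The DG library of vehicle rat 2728 was the deepest of its group, with 22934254 recovered reads against 12130182 to 16278747.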

How the results depend on the processing

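Over 34 alternative analyses, the sign of Zfp300 (where tested) and of the 16 genes ranked by moderated t did not change. These genes were chosen for extreme values in the same rats, so their constant sign follows largely from that choice and supports nothing. Of the other named genes, 28 changed sign in at least 1. The list median kept its sign in 13 of 39 lists. Against 1 gene called (0 higher, 1 lower), 2 were called without a filter (both lower; the other was AABR07033745.1, -2.78), and 0 with a mean of at least 50 in each region (Zfp300 not tested), in the fit with no replicate block, by edgeR, with the number series as a factor or within the series of 4 rats per group. These 5 had 1906, 2168, 2062, 1454 and 628 genes at an unadjusted p below 0.05. The first count is of 12047 tested genes and the others are of 14637. With no difference for any gene, 732 of 14637 would be there on average. The 628 within the series of 4 rats per group lay below that average, in a fit with fewer rats. DESeq2 called 3 (1 higher, LOC100911365 at 2.35, and 2 lower, Bag5l1 at -1.22 and Zfp300). Without vehicle rats 2526 and 2572, 1 was called, with 1 higher (Tmem74b) and 0 lower. Without LPS rats 2403 and 2527, an alternative chosen after seeing the data, 3 were called, with 1 higher (LOC100911365, 2.90) and 2 lower (Zfp300, and Lrriq1 at -1.01). At such a p, 765 were lower with the number series as a factor, and 374 were higher and 254 lower within the series.

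Leaving out 1 rat at a time gave 0 to 2 called genes, all lower (0 to 2), none higher (0 to 0). Lrriq1 joined Zfp300 without LPS rat 2403, and 0 were called without LPS rat 2408 or 2543 or vehicle rat 2410, 2571 or 2728. Genes at an unadjusted p below 0.05 ran from 1355 (without LPS rat 2404) to 3115 (without vehicle rat 2523), 605 to 1468 higher and 727 to 1647 lower. Non-overlapping genes ran from 7 to 70, more by construction with fewer rats, and the depth difference from -0.27 to -0.11. Zfp300 ran from -1.91 to -1.70 (adjusted p 0.00615 to 0.0652). The cause of these shifts was not tested. Depth limits Zfp300, which had as few as 3 reads in a library, and the half-widths of the 95% intervals had a lower quartile of 0.31.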

Other observations

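The 6 aged saline rats (14 to 16 months) give a second group to set beside the young LPS rats, chosen after seeing the data. The CA1 library of aged rat 2532 stood apart: it held 12292346 recovered reads, and CA1 minus DG of Zfp300 was 1.55 there against -0.73 to -0.15 in the other aged rats. In the fit of all 22 rats, CA1 minus DG of Zfp300 was lower in LPS than in aged rats by -1.32 (SE 0.31, limma adjusted p = 0.0375), and without rat 2532 by -0.99 (SE 0.25, adjusted p = 0.0975). Aged minus young vehicle was -0.47 (SE 0.31, limma adjusted p = 0.735) with rat 2532. Without that rat it was -0.80 (SE 0.25), with a limma unadjusted p of 0.0047 and an adjusted p of 0.99989. The high adjusted p over all genes does not show that aged and young vehicle rats were alike for Zfp300. These comparisons share samples with the LPS against young vehicle comparison, so they are not independent of it.

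The count of called genes against the aged rats rested on the same library. Of 14637 tested genes, LPS against aged rats gave 1315 called in CA1 minus DG with rat 2532 and 1 without it, Tmem101. At an unadjusted limma p below 0.05 stood 4770 and 3362 genes. With no difference for any gene, that count would be 732 on average, although genes are not independent. Aged against young vehicle rats gave 0 called genes with and without that rat (limma). At such a p stood 763 and 292 genes, the first near that average and the second below it. Age and treatment both differ between LPS and aged rats.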
